A study of Mus musculus with 2 samples.

Results

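Myeloperoxidase, the haem enzyme of primary granules, and the enzymes that make haem were followed at the RNA level in granulocyte-monocyte progenitors, the marrow precursors of neutrophils and monocytes. The 9 genes were taken by name, Mpo and 8 enzymes of the pathway, from 43346 annotated genes in the deposited tables, and all 9 were found. Not every step of the pathway is among them. The cells were primary cells of adult male C57BL/6J mice aged 5 to 6 weeks, with no treatment or genetic change named. The samples form 1 group with 2 biological replicates, and each library was made from 100 ng of total RNA depleted of ribosomal RNA. The labels tie both to 1 donor record and do not say how many animals were pooled, so the SD over the libraries may be partly technical. No condition was compared and no p-value is given.

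Haem synthesis starts in the mitochondrial matrix, where 5-aminolevulinate synthase joins glycine and succinyl-CoA. The middle steps take place in the cytosol and the last steps in the mitochondrion, ending with the insertion of iron. Mammals have a form of the synthase used in all tissues, Alas1, which haem itself holds down, and a form made for haemoglobin in erythroid cells, Alas2. Myeloperoxidase receives its haem in the endoplasmic reticulum before it is packed into granules, where it makes hypochlorous acid from hydrogen peroxide and chloride.

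The libraries held 49473848 and 44260902 expected counts, which are reads per gene after an estimator has split those shared among features. Levels are in TPM, which divides by effective length and sums to the same total in each library. Where 2 values are joined by "and", the first is of replicate 1 and the second of replicate 2. Features other than nuclear protein-coding genes took most of that sum. The share of nuclear protein-coding genes was 19.1% and 22.8%, so a deposited TPM can rise between the libraries with no change in its share of mRNA. Where stated, TPM was rescaled so that these 21461 genes make up the total. The 4 genes of the surface proteins by which such cells are sorted (Fcgr3, Fcgr2b, Cd34 and Kit) lay between 20.4 and 117 TPM. The expected counts of all 9 genes were whole numbers to the 2 decimals deposited, in both libraries. The spans of Mpo, Alas1, Alas2, Uros, Cpox and Ppox overlap genes on the other strand, whose counts were also whole numbers. No read thus shows as split between them. Whether the counting used strand is not known, and the assignment of reads in the overlaps was not tested.

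Mpo stood above every other nuclear protein-coding gene in mean TPM. It was at 2552 and 2288 TPM (mean 2420 TPM ± 187, SD, n = 2), and ranked 1 and 2 in the respective library. In replicate 2 the translation factor gene Eef1a1 was higher, at 2572 TPM. The 665507 and 487367 reads of Mpo were 1.60% and 1.27% of all nuclear protein-coding reads. Alas1 was the second of the 9 genes, at 115 and 105 TPM (mean 110 TPM ± 6.53). Both libraries had 8 of the 9 at or above 1 TPM, where 40.8% of nuclear protein-coding genes did, and Mpo and Alas1 were the 2 that reached 100 TPM in both, where 1.24% did. In RNA from whole populations, fewer cells of a type and less RNA per cell cannot be told apart.

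**Figure D1:**
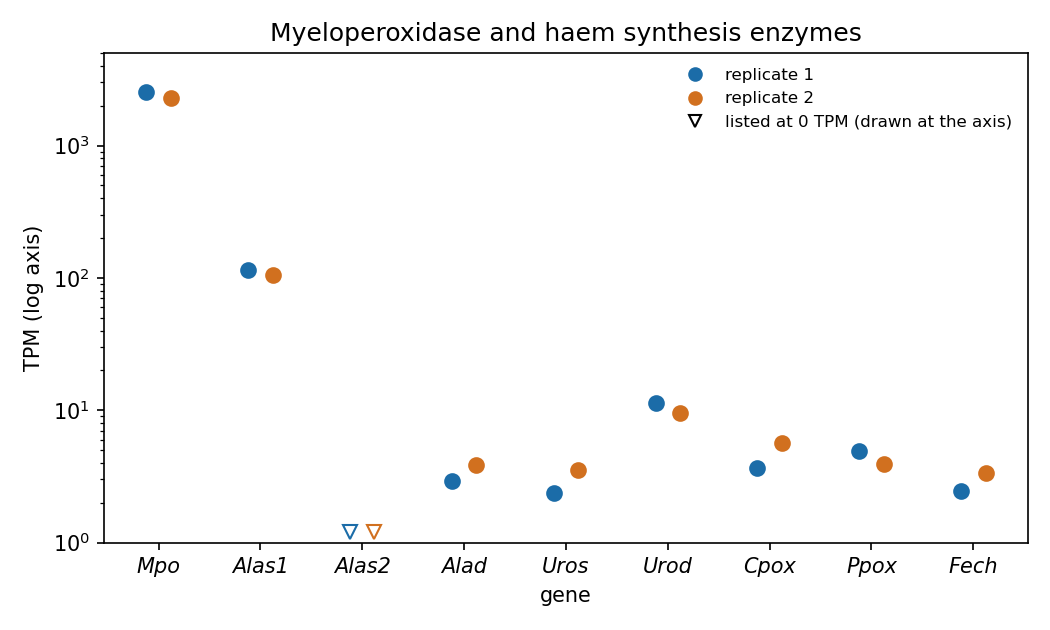
TPM (log axis) of Mpo and the 8 haem synthesis enzymes in replicate 1 (blue) and replicate 2 (orange), with open triangles at the axis for a gene listed at 0. Mpo lies at 2288 TPM or more, Alas1 above 100 TPM, the other detected enzymes between 2.35 and 11.4 TPM, and Alas2 at 0.

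Mpo (ENSMUSG00000009350.9) lies on chromosome 11 at chr11:87793581-87804413 of mm10, on the plus strand. Its 2 coding transcripts of 14 exons start 628 nt apart and have the same coding sequence, so they encode the same protein. The upstream transcript (ENSMUST00000020779, 2750 nt) starts at 87793581 and the downstream transcript (ENSMUST00000121303, 2409 nt) at 87794209. The downstream transcript was assigned most of the RNA of this pair. It was at 1820 and 1816 TPM, and the upstream transcript at 103 and 82.2 TPM. Of the TPM of the pair, the downstream transcript held 94.6% and 95.7%. The 2 libraries were alike in this, with a ratio of 17.7 and 22.1 between the transcripts.

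The 300-base promoter window that RefSeq gives for Mpo (GRCm38.p6) is set on a start at 87793784 and ends 376 nt before the downstream transcript, so the sequence around the leading start is not in it. The part of that window before the upstream transcript is shown because it lies at the lesser start, at chr11:87793534-87793580 on the plus strand.
Mpo upstream: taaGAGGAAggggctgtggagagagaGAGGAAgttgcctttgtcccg
Capitals mark GAGGAA, a form of the core bound by ETS factors such as PU.1, searched on both strands. The letters occur in 28.3% of the 32851 RefSeq promoter windows of the same length, so a match is common. Among the members they also occur in the window of Alas2, where they are not marked below, and in 1 of the 2 windows of Uros.

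Another transcript took a large part of the Mpo TPM. It is a partial coding model (ENSMUST00000146650) of 640 nt and 2 exons from the 3′ part of the gene, whose annotated start is incomplete. It was at 598 and 362 TPM, which is 23.4% and 15.8% of the gene's TPM but 5.99% and 3.54% of its reads, since a short model gains in TPM. The deposited credibility intervals of this transcript, 582 to 600 TPM and 348 to 368 TPM, did not overlap between the libraries. By TPM, the downstream transcript held 71.3% and 79.4% of the gene, and by reads 88.0% and 91.4%. In expected counts, which scale with library depth, the downstream transcript had 585494 and 445583 and the partial model 39886 and 17271. Transcripts annotated as coding held 99.0% of the Mpo TPM in each library.

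**Figure D2:**
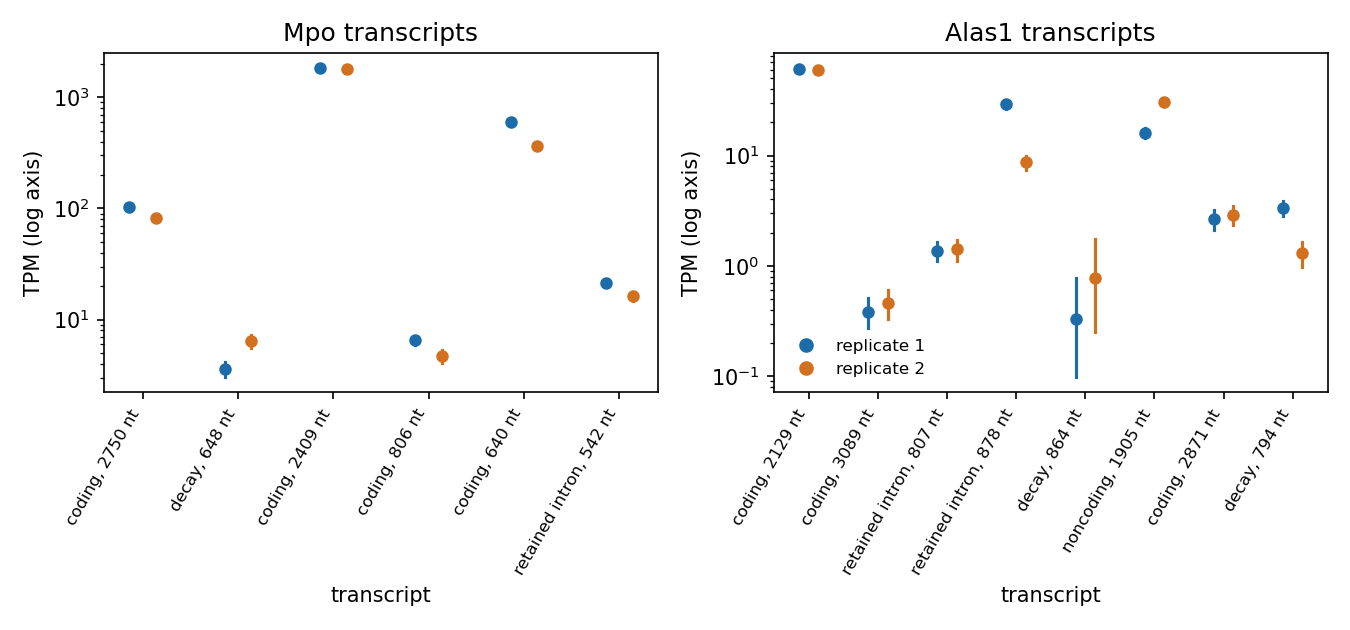
TPM (log axis) of each annotated transcript of Mpo (left) and Alas1 (right) in replicate 1 (blue) and replicate 2 (orange), with vertical lines for the deposited credibility interval. Transcripts are labelled by class and length, with decay for those subject to nonsense-mediated decay. The Mpo transcript of 2409 nt and the Alas1 transcript of 2129 nt lead in both libraries, and the intervals of the Mpo model of 640 nt and of the Alas1 models of 878 and 1905 nt are among those that lie apart between the libraries.

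Mpo belongs to a family of haem peroxidases, and its nearest relatives lie beside it on chromosome 11. Lpo, encoding lactoperoxidase of milk and saliva, lies 2014 nt beyond the end of Mpo at chr11:87806428-87828289. Epx, encoding the peroxidase of eosinophil granules, lies 59.6 kb away at chr11:87864000-87875536. Both are on the minus strand. Epx was at 0.86 and 1.11 TPM, from 313 and 194 reads, so Mpo was 2968-fold and 2061-fold higher per length. Lpo had 0 reads in both libraries, and 3 counts per library, the limit that counting error alone sets, would be 0.00757 and 0.00989 TPM on its first-listed transcript. Pxdn, the peroxidasin gene, also had 0 reads. Of these 4 peroxidase genes, Mpo alone reached 1 TPM in both libraries. Epx is also a marker of eosinophils, and of 6 such markers Prg2, encoding major basic protein, was highest, at 19.1 and 17.3 TPM, followed by Prg3, at 2.07 and 3.77 TPM, while Epx, Ear1, Ear6 and Il5ra were at 1.11 TPM or less in each library.

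The first enzyme was present in its general form and nearly absent in its erythroid form. Alas1 (ENSMUSG00000032786.10; chr9:106233455-106248654, minus strand) had 25803 reads in replicate 1 and 20332 in replicate 2. Alas2 (chrX:150547375-150570638, plus strand) had 0 reads in replicate 1 and 1 in replicate 2. In replicate 1, 3 counts would be 0.0112 TPM on the length of its first-listed transcript, and Alas1 was 10234-fold above that floor. On that length, the upper end of an exact 95% Poisson interval for 0 reads, 3.69 counts, gives 8323-fold. The deposited upper credibility bound of Alas2 was wider, at 0.104 and 0.155 TPM, and the fold against it would be smaller. In replicate 2, Alas1 was 21463-fold higher, with an exact 95% Poisson interval for the single Alas2 read of 3852-fold to 847752-fold. On log2(TPM + 1) the difference was 6.79 ± 0.09 (SD, n = 2), a scale that has a floor when a gene is at 0.

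Erythroid markers were read beside Alas2 because it is an erythroid gene. Of 12 such markers, 10 were below 1 TPM in both libraries, where 56.4% of nuclear protein-coding genes were, and none had 0 reads in both. Their TPM summed to 4.10 and 9.63. The highest were the alpha globin gene Hba-a2, at 1.19 and 3.77 TPM, and the carbonic anhydrase gene Car1, at 1.07 and 3.33 TPM. The erythroid factor gene Klf1 was at 0.14 and 0.10 TPM, from 28 and 15 reads, and Gata1 at 0.71 and 0.99 TPM. The lowest by mean TPM was Rhag, at 0.01 and 0.04 TPM. Hba-a1 and Hba-a2 are near-identical, so the split between them is uncertain. Their part in the Alas2 level was not tested.

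The sequences upstream of the 2 synthase genes are shown because they sit before the most and the least abundant enzyme of the pathway. They run from the start of the RefSeq window to the base before the leading Alas1 transcript or the first-listed Alas2 transcript. The first lies at chr9:106247857-106247980 on the minus strand and the second at chrX:150547167-150547374 on the plus strand (GRCm38.p6).
Alas1 upstream: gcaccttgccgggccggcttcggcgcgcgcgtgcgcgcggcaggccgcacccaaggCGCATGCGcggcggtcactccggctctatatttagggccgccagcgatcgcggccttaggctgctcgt
Alas2 upstream: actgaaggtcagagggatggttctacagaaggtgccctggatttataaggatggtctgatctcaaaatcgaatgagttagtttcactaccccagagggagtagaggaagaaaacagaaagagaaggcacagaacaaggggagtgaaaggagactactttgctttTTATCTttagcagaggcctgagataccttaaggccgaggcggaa
Capitals in the first mark CGCATGCG, the core site of nuclear respiratory factor 1, which begins 68 bases before that transcript. These letters occur in 1.87% of all windows, and among the 8 members with a window in those of Alas1 alone. Capitals in the second mark AGATAA on the other strand, a motif of Gata1, which occurs in 11.2% of windows and, among the members, in those of Alas2 and Cpox. Both motifs were searched on both strands of the full 300-base windows. A match is a description of the letters and not a measured site. The gene of nuclear respiratory factor 1, Nrf1, was at 9.61 and 11.2 TPM.

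The Alas2 mRNA is also known for an iron-responsive element in its 5′ leader, a stem-loop through which iron regulatory proteins block translation when iron is low. A search for C, 5 bases, CAGTGN and 5 bases able to pair with the first 5, with G-T pairs allowed, found it in both annotated coding transcripts of Alas2 and in none of the 21 other transcripts of the members that have an annotated 5′ leader. A further 4 have no leader and could not match. It spans a splice junction between chrX:150547458 and chrX:150552150, and is shown with the loop in capitals.
Alas2 iron-responsive element: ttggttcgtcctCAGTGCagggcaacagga
The genes of the 2 iron regulatory proteins were both expressed. Aco1 was at 3.40 and 6.36 TPM and Ireb2 at 4.06 and 5.04 TPM.

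The later enzymes were far below Alas1. Alas1 held 80.5% and 77.9% of the summed TPM of the 8 enzymes. The 6 later enzymes summed to 27.8 and 29.9 TPM. Mpo exceeded Alas1 by 22.3-fold and 21.7-fold, and the sum of all 8 enzymes by 17.9-fold and 16.9-fold. On log2(TPM + 1), Mpo exceeded Alas1 by 4.45 ± 0.03 (SD, n = 2), and by 5.22 ± 0.09 over transcripts annotated as coding alone, an alternative chosen after seeing the data.

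Alad and Uros act early in the cytosol. Alad, the dehydratase that makes porphobilinogen, was at 2.90 and 3.85 TPM, from 462 and 427 reads. Uros, the synthase that closes the ring as uroporphyrinogen III, was at 2.35 and 3.56 TPM. Urod, the decarboxylase of the next step, was the highest of the later enzymes at 11.4 and 9.47 TPM, from 1523 and 1024 reads. Alas1 was 10.03-fold and 11.1-fold above Urod, and 27.3-fold to 48.7-fold above Alad and Uros.

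The last steps return to the mitochondrion. Cpox, coproporphyrinogen oxidase, was at 3.69 and 5.69 TPM. Ppox, protoporphyrinogen oxidase, was at 4.96 and 3.95 TPM, the only member of these 3 that was lower in replicate 2. Fech, the ferrochelatase that inserts iron, was at 2.47 and 3.35 TPM. On rescaled TPM the order by mean was Mpo, Alas1, Urod, Cpox, Ppox, Alad, Uros, Fech and Alas2. Cpox and Ppox overlapped over the libraries, as did Alad and Uros, and Uros and Fech, so these neighbours do not differ beyond their spread. Urod, at 59.9 and 41.5, lay apart from Cpox, at 19.4 and 24.9.

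The level of the 8 enzymes as a group depended on what it was set against. Their median, with Alas2 at 0 included, lay below that of the 11637 nuclear protein-coding genes with 0.1 TPM or more in any library, with a difference of -0.24 on log2(TPM + 1), and -0.25 and -0.24 in the libraries. The sign depends on the summary, since with means the difference was 0.062, and with every nuclear protein-coding gene counted it was 1.95. With Alas2 at 0 included, the median of the 3 cytosolic enzymes was within the libraries' spread of that of the 5 mitochondrial enzymes, at -0.15 ± 0.17 (SD, n = 2). Without Alas2 the difference was -0.34 ± 0.14, beyond that spread. With Alas2 included and over coding transcripts alone, it turned to 0.089 ± 0.096.

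Alas1 reads were divided among 8 annotated transcripts. The leading coding transcript (ENSMUST00000074082, 2129 nt) was at 61.1 and 59.2 TPM, which is 53.3% and 56.2% of the gene. A retained-intron model of 878 nt (ENSMUST00000123601) was at 29.2 and 8.74 TPM, with credibility intervals of 26.4 to 31.2 and 7.39 to 10.01. A noncoding model of 1905 nt (ENSMUST00000134053) with its own first exon was higher in the other library, at 16.1 and 30.5 TPM. Coding transcripts together were at 64.1 and 62.5 TPM, so in deposited TPM the coding part of Alas1 was closer between the libraries than its parts in other classes. Their expected counts, which scale with library depth, were 18386 and 13681. The library fragments differed in length, with a mean of 178 and 214 nt implied by the effective lengths, and the part of this in the split among transcripts was not tested.

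Alas1 transcripts also differ by 3 nt at the start of an exon in the coding sequence, where annotation gives adjacent splice acceptors. A coding transcript of 2871 nt (ENSMUST00000141118) holds these bases and the leading transcript leaves them out. The spliced sequences between chr9:106238219 and chr9:106238660 on the minus strand are shown to make the difference visible, with the 3 bases in capitals.
Alas1 longer exon: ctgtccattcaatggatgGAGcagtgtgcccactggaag
Alas1 shorter exon: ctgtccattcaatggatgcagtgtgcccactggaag
The leading transcript alone has the shorter exon, and 5 transcripts have the longer exon. Of the TPM of these 6, the shorter form held 55.6% and 57.7%. By reads the shorter form stood further ahead, with 17185 expected counts against 8195 in replicate 1 and 12670 against 7484 in replicate 2. The share of the longer form rests largely on the models of 878 and 1905 nt, since the coding transcripts with it were at 0.38 to 2.90 TPM.

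Most Ppox TPM was in transcripts not annotated as coding. Its leading coding transcript (ENSMUST00000073120) was at 0.47 and 0.46 TPM, from 111 and 82.7 expected counts. Coding transcripts held 9.48% and 11.7% of the Ppox TPM, and models with a retained intron held 90.5% and 61.9%. By reads, the retained-intron models held 84.2% and 71.4%. These models differed between the libraries. The model of 4411 nt had 309 and 5.77 expected counts, that of 3042 nt had 0 and 169, and that of 650 nt had 229 and 92.7. Over coding transcripts, Ppox was thus below 1 TPM, and 7 of the 9 genes rather than 8 reached 1 TPM in both libraries. The share of all genes was not computed over coding transcripts.

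Uros transcript classes differed between the libraries. Its retained-intron transcript (ENSMUST00000135760) was at 0.14 and 2.07 TPM, from 40.4 and 457 expected counts. Coding Uros transcripts were at 2.21 and 1.49 TPM, so the higher Uros level of replicate 2 was in the retained-intron model. Urod coding transcripts were at 6.66 and 6.61 TPM, with retained-intron models at 4.29 and 2.86 TPM. Cpox and Fech have 1 annotated transcript each in these tables, so no split can be seen for them.

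**Figure D3:**
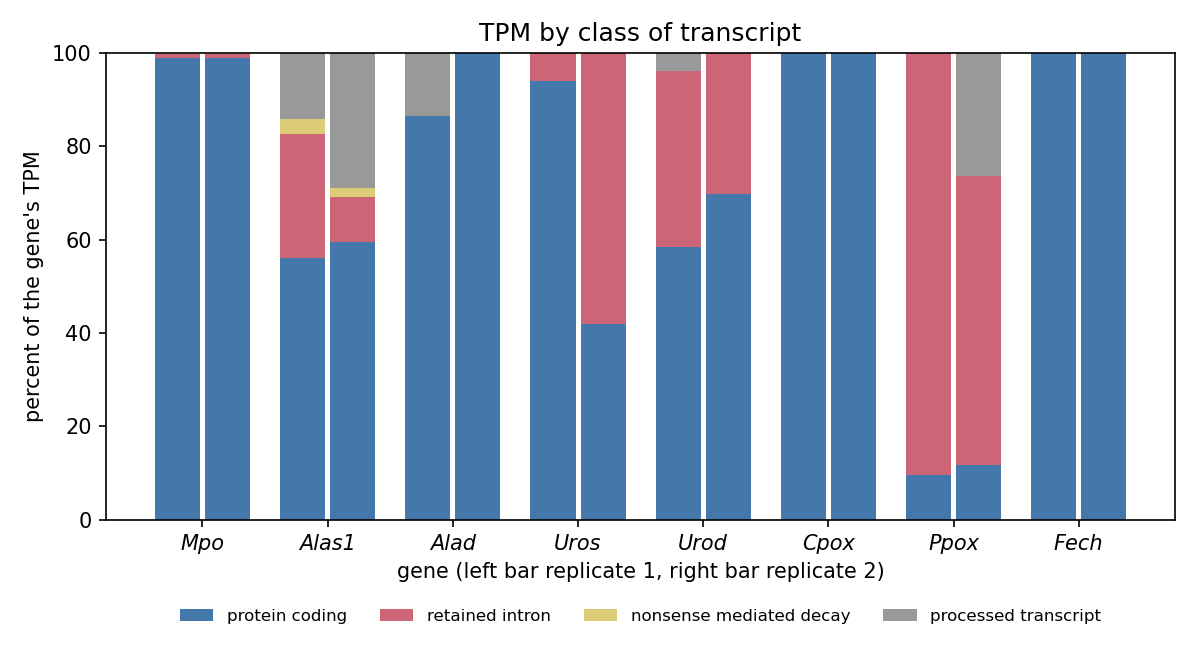
Percent of each gene's TPM (vertical axis) in transcripts annotated as coding (blue), with a retained intron (red), subject to nonsense-mediated decay (yellow) or as processed noncoding transcripts (grey), with replicate 1 as the left bar and replicate 2 as the right bar. Ppox has 9.48% and 11.7% in coding transcripts, Uros moves from 94.0% to 41.9%, and Mpo stays at 99.0%; Alas2, with 1 read, is left out.

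Among 8764 nuclear protein-coding genes with 1 TPM or more in each library, 6.81% had under 50% of their TPM in coding transcripts in both, and 1 of the 8 members at that level did, namely Ppox. In either library, 13.5% of genes and 2 of the 8 members, Ppox and Uros, were under 50%. Under 15% in both, a limit set after the Ppox value was seen, lay 1.14% of genes. The median gene had 99.6% and 98.9% of its TPM in coding transcripts. Libraries of total RNA hold unspliced as well as spliced RNA, and the part of unspliced RNA in these shares was not tested.

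The edges of 3 retained introns are shown so that part of the reads in question can be placed. In each, capitals are bases that a coding transcript of the gene removes as intron and lower case is its coding exon. The Ppox model of 650 nt (ENSMUST00000126765) and the Alas1 model of 878 nt keep the 3′ part of an intron, at chr1:171279545-171279604 and chr9:106239687-106239746, and the Uros model keeps a whole intron, shown at its 5′ end, at chr7:133691056-133691115. All 3 are on the minus strand of mm10.
Ppox retained: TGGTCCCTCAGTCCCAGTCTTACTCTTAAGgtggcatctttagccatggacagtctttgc
Alas1 retained: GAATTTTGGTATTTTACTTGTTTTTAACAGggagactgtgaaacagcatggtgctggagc
Uros retained: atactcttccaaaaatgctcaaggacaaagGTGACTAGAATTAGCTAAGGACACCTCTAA
The acceptor AG ends the intron part of the Ppox and Alas1 sequences, and the donor GT opens that of Uros. The Ppox model shown held 32.4% and 24.8% of the gene's reads. Most of the retained-intron reads of Ppox, 84.2% and 71.4% of the gene's reads, were thus assigned to other models. The Ppox model shown was at 3.36 and 1.90 TPM, above the coding transcript in each. In Alas1 the order was the reverse, with the retained-intron model below the leading transcript in each.

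Most genes that feed, carry or break down haem were detected. These lists were chosen with earlier results of these data known. Of 15 genes of supply and transport, 14 reached 1 TPM in both libraries, beside the 40.8% of nuclear protein-coding genes given above. Tmem14c, needed for import of the porphyrin into the mitochondrion, was highest by the mean, at 32.2 TPM ± 5.51 (SD, n = 2). Tspo, a porphyrin-binding protein of the outer membrane, was at 28.5 TPM ± 1.77 and was the higher of the pair in replicate 1. Slc25a38, the carrier of glycine for the first step, was at 2.27 and 3.55 TPM, and the mitoferrin genes Slc25a37 and Slc25a28, which bring iron to Fech, at 4.99 and 5.54 TPM and at 4.93 and 5.37 TPM. Flvcr2, a relative of the haem exporter gene, had 0 reads in both libraries.

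Of the haem oxygenase genes, the constitutive form was the higher. Hmox2 was at 18.9 and 18.2 TPM, and Hmox1, the form induced by stress, at 0.42 and 0.27 TPM, from 86 and 42 reads. Of the 9 genes that act on the synthase or sense haem and iron, both libraries had 7 at or above 1 TPM, beside the background of 40.8%. Clpp, a mitochondrial protease, was highest by the mean, at 13.7 and 15.3 TPM, and Clpx, the unfoldase that works with it and acts on the synthase, was at 8.73 and 12.2 TPM. The coactivator gene Ppargc1a had 1 read in replicate 1 and 0 in replicate 2.

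Other haem proteins were far below Mpo. Both libraries had 12 of 14 such genes at or above 1 TPM, beside the background of 40.8%. The highest was Sdhd, a haem-binding subunit of complex II, at 33.3 and 49.4 TPM. The catalase gene Cat was at 8.68 and 8.18 TPM, and the oxidase subunits Cybb and Cyba, which supply superoxide in the phagocyte, were at 13.3 and 18.03 TPM and at 24.6 and 22.1 TPM. The inducible nitric oxide synthase gene Nos2 had 0 reads.

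Chaperones that fold the myeloperoxidase precursor, a role known from human cells, were abundant. Calr, encoding calreticulin, was at 917 and 1078 TPM, and Canx, encoding calnexin, at 188 and 291 TPM. Hspa5, encoding BiP, was at 383 and 518 TPM and Pdia3, encoding ERp57, at 83.3 and 119.9 TPM. Furin, a proprotein convertase gene, was much lower, at 1.76 and 0.96 TPM. The order of these 5 genes was the same in both libraries.

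**Figure D4:**
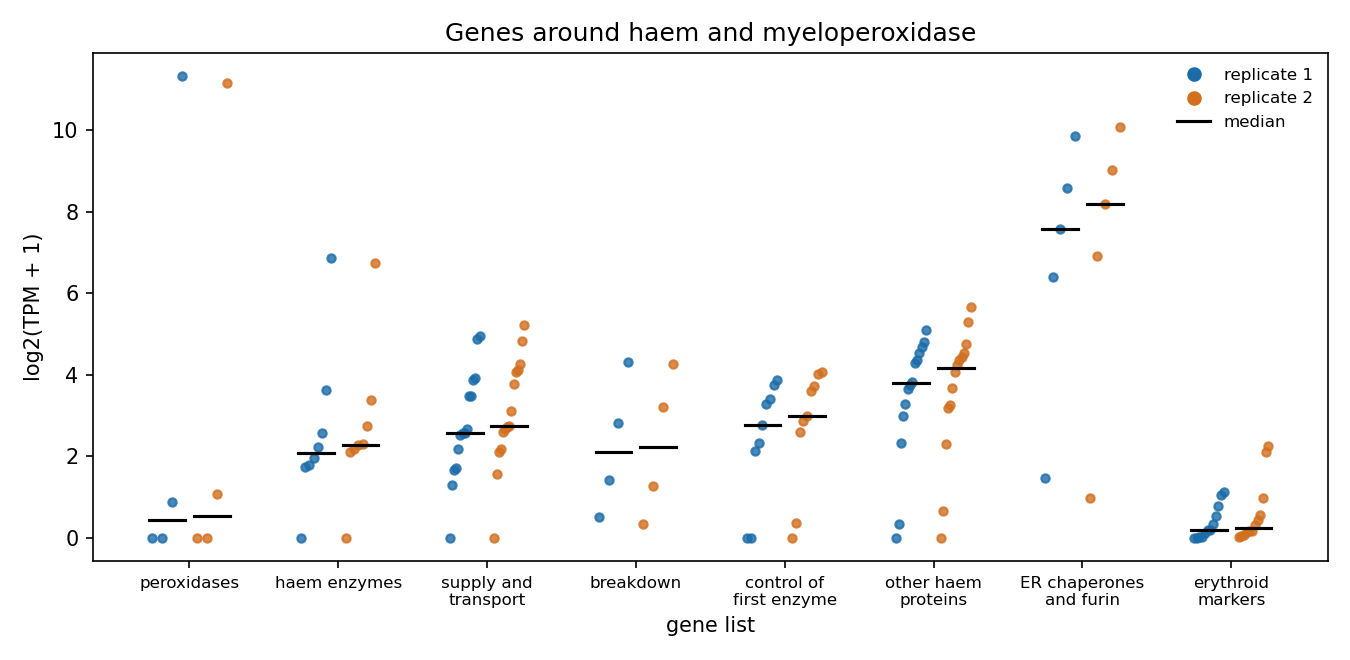
Level as log2(TPM + 1) of each gene (points) of the gene lists around haem and myeloperoxidase in replicate 1 (blue) and replicate 2 (orange), with the list's median as a black line. Mpo is the single high peroxidase, Alas1 the high enzyme and Furin the low gene of the folding list. Of the 12 erythroid markers, 10 lie below 1 TPM in both libraries, where 56.4% of nuclear protein-coding genes do.

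The libraries were set against each other by log2 CPM, which scales counts to the library total, with trimmed-mean scaling. The ratio of replicate 2 to replicate 1 could be had for 8 of the 9 genes, Alas2 being below the filter. It was below 0 for Mpo, at -0.33, for Alas1, at -0.23, for Urod, at -0.46, and for Ppox, at -0.80. It was above 0 for Uros, at 0.60, Cpox, at 0.36, and Fech, at 0.17, and near 0 for Alad, at 0.003. The members thus did not move together. Ppox and Uros, 2 of 8, were past 0.5 in size, where 25.4% of all 12855 genes kept were, and 21.0% of the nuclear protein-coding genes among them, shares near that of the members. Both ratios include retained-intron models that differed between the libraries. The leading coding transcript of Ppox was at 0.47 and 0.46 deposited TPM, a unit not scaled as these ratios are. By expected counts it was lower in replicate 2, with 111 and 82.7, so the Ppox ratio is not placed in the retained-intron models alone. On rescaled TPM the pair past 0.5 was another, with Ppox at -0.56 and Urod at -0.52, while Uros was at 0.32. The share of all genes past 0.5 was not computed on that scale, so this count has nothing to be set beside. Each ratio is of single libraries, with nothing to check it against.

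The ratio followed base composition. Genes were cut into 5 bins of 2213 or 2214 by GC content of the leading transcript, which do not hold all 12855 genes kept. The median ran from 0.16 in bin 1, the lowest, to -0.17 in bin 5. Mpo, Alas1, Urod and Ppox, with 54.9%, 53.3%, 53.9% and 54.0% GC, all lay in bin 4, whose median was -0.11. With the trend on GC removed, Mpo was at -0.21, Alas1 at -0.14, Urod at -0.35, Ppox at -0.69 and Uros at 0.61, so no sign turned among them. Over the 8301 genes with a mean CPM at least that of Alad, the lowest member kept, the median size of the ratio was 0.18 and 95% of ratios lay between -0.66 and 0.59. Ppox and Uros lay outside that range and the other 6 members inside it. Over all 11143 nuclear protein-coding genes kept, 95% of ratios lay between -1.18 and 1.17, and every member with a ratio lay inside.

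**Figure D5:**
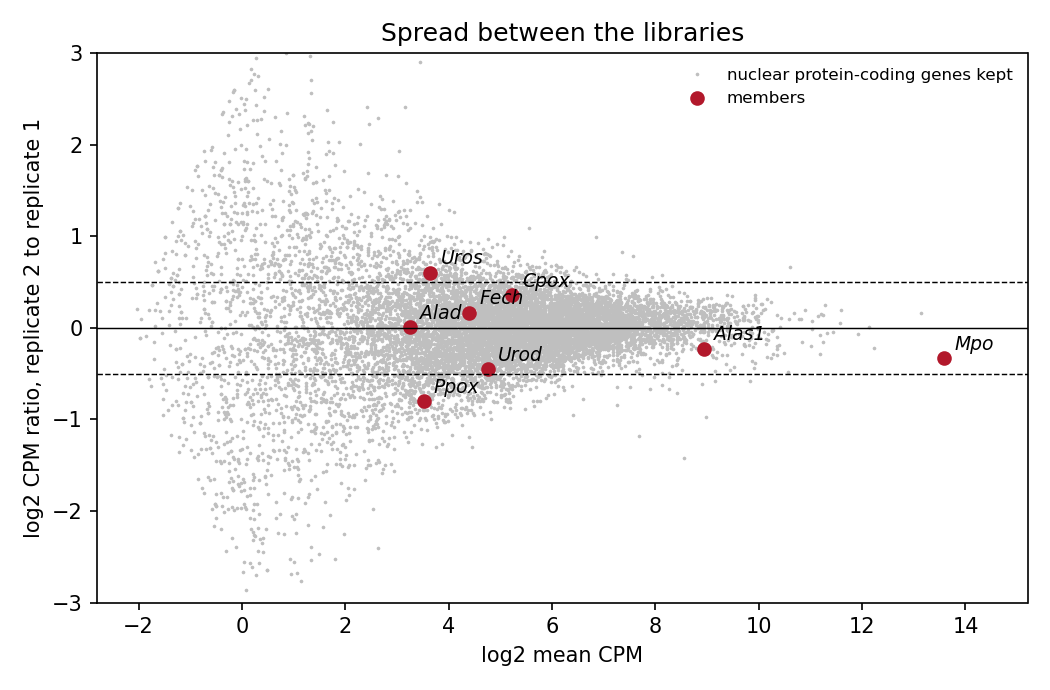
Log2 CPM ratio of replicate 2 to replicate 1 against log2 mean CPM for 11143 nuclear protein-coding genes (grey) and 8 members (red), with dashed lines at -0.5 and 0.5. The vertical axis runs from -3 to 3 and 14 genes lie beyond it; Ppox and Uros lie past the dashed lines and Mpo, at the far right, at -0.33.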

How the data were processed

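The deposited tables give expected counts, TPM and FPKM per gene and transcript, posterior mean counts and TPM, credibility bounds of TPM as a signal, effective lengths, and each transcript's percent of its gene, as the authors made them. Per the file headers and deposited metadata, the build is mm10 and the annotation GENCODE M4, with aligner, quantifier and strand setting not given in the sources used here. Per the labels, the size range was 200 to 712 in replicate 1 and 200 to 1000 in replicate 2, with no unit.

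Names, classes, coordinates and transcript sequences came from GENCODE M21 (GRCm38, the same build) by identifier without version; 42462 of 43346 genes matched. Transcript classes are thus those of M21. Promoter windows came from RefSeq (GRCm38.p6), 250 bases before to 50 after a start, for 8 of 9 members. Expected counts were rounded for edgeR 4.0.16 (R 4.3.3, TMM factors 0.985 and 1.02, prior count 2, filterByExpr). The code was run on simulated counts with less spread than these libraries have, so that run does not give the error of the ratios here. The GC trend used lowess (statsmodels 0.14.6, span 0.3). Fold values against 0 use 3 counts per library, and intervals cover counting error only. Alternatives were other units, pseudocounts (0.1 for 1), filters, DESeq2 1.42.0 size factors, and each library alone.

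The members, lists and tests were chosen with earlier results of these data known. Named genes are the 9 members, leading, lowest and up to 4 other genes of the fixed lists, and the most abundant coding genes. A gene of the lists is not reported here.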

Additional observations from a re-analysis of the deposited data

How the results depend on the processing

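Of 54 alternatives, 35 left a value within the spread of the libraries, or a count within 1.5 times, 16 moved it further and 3 reversed it. With 2 libraries, each library alone always lies within the SD around their mean. For values that are such means, the alternatives with 1 library were thus bound to fall among the 35 and show no robustness. No test was run, so no call could change. For Alas1 minus Alas2, 6.79 as reported, the value was 10.10 with a pseudocount of 0.1, 9.04 on rescaled TPM, 8.22 on FPKM and 6.69 on posterior means, since Alas2 is at the floor. Mpo minus Alas1 moved from 4.45 to 5.22 over coding transcripts alone. The enzyme median against protein-coding genes, -0.24 as reported, was -0.30 with a pseudocount of 0.1, -0.29 on rescaled TPM, -0.28 on FPKM, -0.26 on posterior means, -0.17 without Alas2 and -0.19 over coding transcripts, and reversed to 0.062 with means and to 1.95 with no filter on low genes. The cytosolic minus mitochondrial median, -0.15, was -0.34 without Alas2 and reversed to 0.089 over coding transcripts. At 5 TPM in place of 1 TPM, 3 members were counted in place of 8, with no share over all genes computed at that level. At 10 TPM in both libraries there were 2 members, where 14.3% of nuclear protein-coding genes reached that level. By reads in place of TPM, the leading transcript share was 89.7% for Mpo and 64.5% for Alas1, against 75.3% and 54.8%. On rescaled TPM, Urod took the place of Uros among the 2 members past 0.5 between the libraries. With no filter on low counts, Alas2 also passed 0.5 between the libraries, at 0.61 from 0 and 1 reads. The share of all genes past 0.5 was not computed in either setting.

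With each library alone, the rank of Mpo was 1 to 2, Mpo minus Alas1 was 4.43 to 4.47, Alas1 minus Alas2 6.73 to 6.85, the enzyme median -0.25 to -0.24, the cytosolic minus mitochondrial median -0.27 to -0.03, the Mpo share 71.3% to 79.4% and the Alas1 share 53.3% to 56.2%, and 8 members reached 1 TPM in each. No paired analysis was possible because the series holds 1 group. Other causes of the moves were not tested. Depth limits the values of genes with few or no reads, Alas2 and Lpo among them.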

Other observations

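Several members overlap genes on the other strand, which were looked up after their values were seen. Gm11505, a noncoding gene annotated as antisense to Mpo over 5361 nt, had 842 and 648 reads in replicates 1 and 2, or 10.4 and 11.1 TPM, a level near that of Urod. Ppox overlaps B4galt3 over 907 nt, at 2.90 and 4.46 TPM, and Uros overlaps Bccip over 740 nt, at 19.2 and 26.4 TPM. Alas2 lies within the span of Apex2, at 1.48 TPM in each library. The overlaps are of gene spans, introns included. The expected counts of the partners, like those of the members, were whole numbers, so no read shows as split between them. Whether the counting used strand is not known, and the assignment of reads in the overlaps was not tested.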
